A study of Rattus norvegicus with 3 samples.

Results

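The genes described here are 10 molecular chaperones, 5 that work in the cytosol and nucleus (Hspb1, Hspa8, Hsp90aa1, Hsph1 and Dnajb1) and 5 that work in the endoplasmic reticulum, the ER (Hspa5, Hsp90b1, Calr, Pdia4 and Pdia6), out of 30560 features in the count matrices. They were picked by symbol, and all 10 were found. The rule uses no measured value, but the genes were chosen with earlier results of these data known. The samples were nuclei of rat brain from 12-week-old female wild-type Crl:CD(SD) rats, an outbred strain, whose brains were taken 7 hours after 1 intraperitoneal injection. The control group received saline, the second group received lipopolysaccharide (LPS, a component of the outer membrane of Gram-negative bacteria) at 5 mg/kg, and the third received polyinosinic:polycytidylic acid (poly(I:C), a synthetic double-stranded RNA that mimics viral RNA) at 12 mg/kg. Each group was 1 library of nuclei from 4 pooled animals, made with the 5' v2 chemistry of 10x Genomics, and the nuclei cannot be assigned to animals. The spread between animals is therefore unknown, no test between groups was possible, and every interval below is an exact 95% interval that covers counting error only.

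Chaperones bind unfolded or partly folded proteins and keep them from aggregating. In the cytosol, heat shock factor 1 is held inactive by Hsp90 and Hsp70 proteins and, once released by misfolded protein, turns on genes through heat shock elements. In the ER, the chaperone Hspa5 (BiP) restrains the sensors Ire1, Perk and Atf6, and the unfolded protein response that they start raises ER chaperone genes, in part through ER stress elements. In the brain the small heat shock protein Hspb1 is known from blood vessel cells and reactive glia, while most other members are made in nearly every cell.

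The start regions of the members are shown first so that the heat shock and ER stress elements named above can be read in them. RefSeq's table for the GRCr8 assembly held a 300-base window (250 bases before the start of the gene and 50 after it) for 8 of the 10 members, and none for Hsp90aa1 and Pdia6. The counts were made on another build, mRatBN7.2, so the windows serve to show sequence and carry no counts. Each window below is printed 5' to 3' on the gene's strand, with capitals for a heat shock element pair (GAANNTTC or TTCNNGAA) or triplet (GAA, TTC and GAA with 2 free bases between each) in the cytosolic members and for an ER stress element (CCAAT and CCACG with 9 free bases between them) in the ER members, on either strand. Of the 8 windows, 4 are printed, from a pair of cytosolic and a pair of ER members with many of the values below, and they were chosen after those values had been seen. Hspb1 lies at chr12:26432252-26432551 on the minus strand, Hsph1 at chr12:10427118-10427417 on the plus strand, Hspa5 at chr3:38452766-38453065 on the plus strand and Hsp90b1 at chr7:23012244-23012543 on the minus strand.
Hspb1: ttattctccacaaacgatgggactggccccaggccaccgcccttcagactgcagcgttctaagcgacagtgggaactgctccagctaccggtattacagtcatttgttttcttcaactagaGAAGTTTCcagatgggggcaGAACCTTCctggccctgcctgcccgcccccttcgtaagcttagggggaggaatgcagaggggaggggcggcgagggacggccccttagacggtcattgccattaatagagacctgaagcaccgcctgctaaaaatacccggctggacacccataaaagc
Hsph1: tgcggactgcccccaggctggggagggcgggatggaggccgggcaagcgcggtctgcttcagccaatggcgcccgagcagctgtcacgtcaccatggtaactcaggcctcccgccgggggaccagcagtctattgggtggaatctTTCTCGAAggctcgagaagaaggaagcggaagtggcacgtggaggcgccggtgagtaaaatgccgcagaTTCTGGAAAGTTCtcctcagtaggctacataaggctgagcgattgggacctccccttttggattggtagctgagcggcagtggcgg
Hspa5: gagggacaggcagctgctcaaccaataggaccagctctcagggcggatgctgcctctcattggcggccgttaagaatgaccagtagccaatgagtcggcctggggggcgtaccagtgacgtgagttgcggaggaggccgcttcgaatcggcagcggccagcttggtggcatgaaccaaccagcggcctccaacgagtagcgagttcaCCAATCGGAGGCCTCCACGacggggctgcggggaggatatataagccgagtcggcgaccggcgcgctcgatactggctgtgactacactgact
Hsp90b1: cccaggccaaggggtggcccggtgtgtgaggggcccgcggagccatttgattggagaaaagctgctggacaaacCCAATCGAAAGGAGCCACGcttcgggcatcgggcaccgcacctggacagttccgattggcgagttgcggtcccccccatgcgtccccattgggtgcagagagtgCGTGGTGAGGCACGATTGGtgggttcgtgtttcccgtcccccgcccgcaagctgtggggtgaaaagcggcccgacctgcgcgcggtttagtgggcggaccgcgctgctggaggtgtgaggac

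The pair GAANNTTC was in 4 of 4 cytosolic windows and 0 of 4 ER windows, against 8.59% of all 33469 windows in the table. The other pair, TTCNNGAA, was in 2 of 4 cytosolic windows and 0 of 4 ER windows, against 8.77% of all windows. Hspb1 had 2 GAANNTTC pairs, which began at positions -129 and -109 (bases before the start of the gene carry a minus sign), and 0 TTCNNGAA pairs. The longer triplet, which overlaps both pairs, was in 0.798% of all windows, and the windows of Hspa8 (2 matches) and Hsph1 (1 match) held it. The ER stress element was in 3 of 4 ER windows and 0 of 4 cytosolic windows, against 22 windows in the table, or 0.0657%. Hspa5 had 1 match at -43, Hsp90b1 had 2 matches at -176 and -72, and Calr had 1 at -232. Pdia4 had no match to the ER stress element, which says only that these letters are absent from its window. The letters CCAAT alone were in 3 of 4 cytosolic and 4 of 4 ER windows, against 37.5% of all windows. The letters TGACGTGG (an unfolded protein response element, in 0.595% of all windows) and a repeat of GAAA with 2 free bases between the copies (the core of an interferon-stimulated response element, in 3.92%) were in none of the 8 windows. A match is a description of the sequence and does not show that a factor bound there.

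The matrices held 25435 barcodes and 35532360 UMIs (unique molecular identifiers, each standing for 1 captured RNA molecule) for saline, 11211 barcodes and 29763787 UMIs for LPS, and 15001 barcodes and 21340578 UMIs for poly(I:C). The median depth per barcode was 1165, 2436 and 1264 UMIs in that order, so the LPS library held fewer and deeper barcodes than the others. Barcode sequences found in more than 1 library numbered 420 for saline and LPS, 550 for saline and poly(I:C) and 247 for LPS and poly(I:C), and leaving them out moved no median, ratio or count of members beyond its counting interval. Barcodes were sorted into 13 cell classes by UMIs of marker genes, none of them a member. The gate used first, called the stricter gate below, asked for at least 2 different markers of 1 class only, which left 47.1%, 38.6% and 44.0% of barcodes in no class, in the same order. Levels are given in CPM, the UMIs of a gene over all UMIs of the library or class on the usual scale of counts per 1000000, and a level in nuclei counts nuclear RNA. RefSeq also lists pseudogenes named after Hspa8, Hsp90aa1, Hsp90b1 and Pdia4, and how reads shared with such copies were counted is not given in the sources used here, so the levels of these 4 genes are less certain than the others. Both treatments are set against the same saline library, so the values of the 2 comparisons are given side by side and are not independent.

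Over all barcodes, Hspb1, the small heat shock protein that holds unfolded proteins without using ATP, was the member furthest from saline. It stood at 3.21 CPM in saline (114 UMIs), 6.59 CPM after LPS (196 UMIs) and 9.75 CPM after poly(I:C) (208 UMIs). Both treated libraries were above saline, LPS by 2.05-fold (1.62 to 2.61) and poly(I:C) by 3.04-fold (2.41 to 3.85). Hspb1 was the 1 member of 10 at least 1.5-fold above saline in either treated library, and no member was 1.5-fold below it. Among all genes with at least 50 UMIs over both libraries, 3.96% were 1.5-fold higher and 3.19% were 1.5-fold lower after LPS, and 2.76% were higher and 6.26% lower after poly(I:C). In such sums, fewer cells of a type and less RNA per cell cannot be told apart, and the libraries differed in depth and in their mix of classes.

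**Figure D1:**
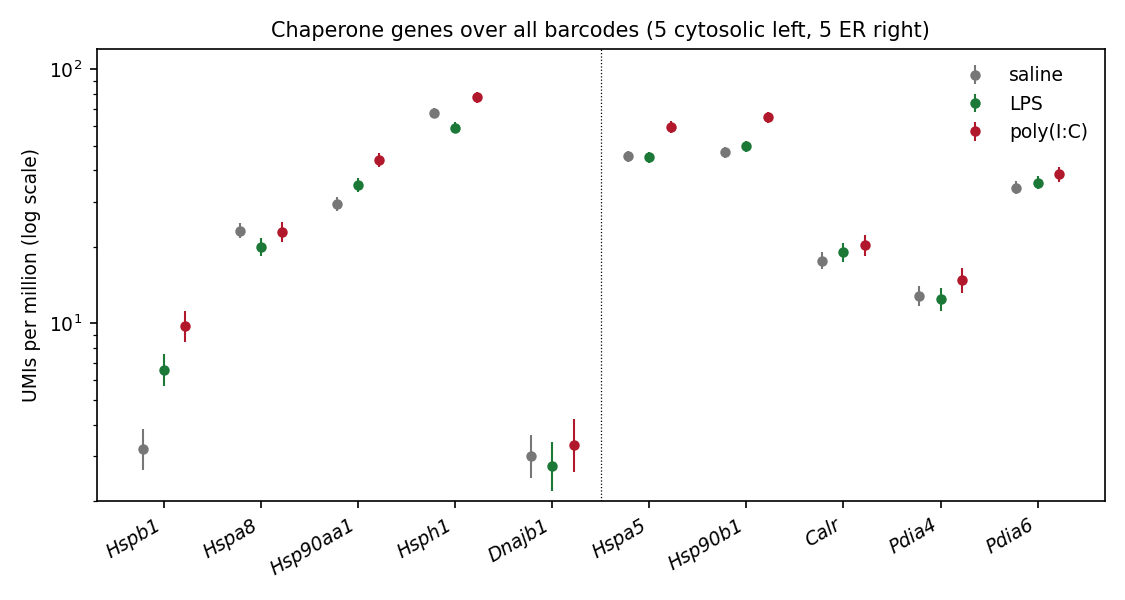
Levels of the 10 chaperone genes summed over all barcodes of each library, in CPM on a log axis, with exact 95% Poisson intervals (counting error only). Hspb1 stands at 3.21, 6.59 and 9.75 CPM in saline, LPS and poly(I:C), while the other 9 members lie within 1.5-fold of saline.

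The other cytosolic members were closer together. Hsp90aa1, the stress-inducible form of the Hsp90 chaperone that matures kinases and receptors, stood at 29.6 CPM in saline, 35.1 after LPS and 44.1 after poly(I:C). That was 1.19-fold (1.09 to 1.29) and 1.49-fold (1.37 to 1.63) above saline. Hsph1, the Hsp110 protein that reloads Hsp70 with ATP, was at 67.5 CPM in saline, 59.0 after LPS and 77.7 after poly(I:C). Its LPS level was below saline at a ratio of 0.875 (0.822 to 0.931), and its poly(I:C) level was above it at 1.15 (1.08 to 1.23). Hspa8, the constitutive Hsp70, was at 23.2, 20.02 and 23.0 CPM, with a ratio to saline of 0.865 (0.777 to 0.962) after LPS and 0.991 (0.885 to 1.11) after poly(I:C). Dnajb1, the co-chaperone that delivers clients to Hsp70, was at 3.01, 2.76 and 3.33 CPM and its intervals against saline included 1. With each nucleus thinned to 1000 UMIs, which left out 10150, 1901 and 4763 shallower barcodes, the Hspa8 log2 ratio for LPS turned from -0.21 to 0.05.

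ER members lay above saline after poly(I:C) by less than 1.5-fold. Hspa5, the ER Hsp70, was at 45.5 CPM in saline, 45.0 after LPS and 59.2 after poly(I:C), ratios of 0.989 (0.919 to 1.06) and 1.30 (1.21 to 1.40). Hsp90b1 (Grp94), the ER Hsp90, was at 47.1, 49.8 and 64.7 CPM, with a poly(I:C) ratio of 1.37 (1.28 to 1.48). For both genes the poly(I:C) library was the high one and LPS lay close to saline. Calr (calreticulin), the lectin chaperone that folds glycoproteins, stood at 17.7, 19.1 and 20.3 CPM. Pdia6, a protein disulfide isomerase that forms and rearranges disulfide bonds, stood at 34.3, 35.9 and 38.6 CPM. Pdia4, another disulfide isomerase, stood at 12.8, 12.4 and 14.8 CPM. The poly(I:C) ratios of these 3 were 1.15 (1.01 to 1.30), 1.13 (1.03 to 1.23) and 1.15 (0.996 to 1.34).

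As groups over all barcodes, the median log2 ratio of the 5 cytosolic members was -0.13 after LPS and 0.20 after poly(I:C), but the LPS value became 0.44 with nuclei thinned to 1000 UMIs. The median of the 5 ER members was 0.07 after LPS and 0.21 after poly(I:C), and thinning moved the LPS value to 0.24. Over all genes with at least 50 UMIs the medians were -0.03 and -0.09. Between the treatments, 0 of 10 members were 1.5-fold apart, where 5.05% of genes were that much higher in LPS and 2.11% that much higher in poly(I:C). The cytosolic median for LPS against poly(I:C) was -0.33, but it was 0.09 after thinning, with Hspb1, Hspa8 and Hsp90aa1 turning sign. The ER median for that pair was -0.25.

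The levels of Hspb1 were highest in blood vessel nuclei among the classes with enough UMIs to compare. Under the stricter gate, endothelial nuclei had 13 UMIs in saline, 13 after LPS and 23 after poly(I:C), or 247, 593 and 632 CPM. These came from only 86, 28 and 65 nuclei with 52594, 21939 and 36377 UMIs in all. A wider gate was defined after the sizes and values under the first had been seen. It gave a barcode to the non-neuronal class with the most different markers, at least 2 and more than any other such class. The marker UMIs also had to outnumber those of the neuron panel. This gate left 34.8%, 16.5% and 33.5% of barcodes in no class and held 315, 152 and 164 endothelial nuclei. In it Hspb1 was at 184, 695 and 600 CPM, and both treated libraries were well above saline. Mural nuclei (pericytes and smooth muscle cells of the vessel wall; 94, 42 and 63 nuclei) were at 151, 430 and 766 CPM. Endothelial and mural levels of Hspb1 did not differ beyond counting error in any library, with ratios of 1.22 (0.612 to 2.69) in saline, 1.62 (0.941 to 2.99) after LPS and 0.783 (0.512 to 1.22) after poly(I:C).

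The 3 large neuron classes were far below these levels. Under the wider gate excitatory neurons had 0.774, 1.44 and 3.31 CPM of Hspb1 in saline, LPS and poly(I:C), GABA neurons had 1.38, 1.26 and 3.67 CPM, and striatal projection neurons had 1.09, 0.842 and 2.50 CPM. The endothelial level was 238-fold, 483-fold and 181-fold that of excitatory neurons in the same library. Within excitatory neurons the poly(I:C) level was 4.27-fold (1.76 to 11.8) that of saline, on 22 and 7 UMIs of which 6 lay in 1 poly(I:C) nucleus, and the stricter gate left 6 and 2 UMIs with an interval that included 1. Barcodes of excitatory neurons under the wider gate also held neutrophil markers at 0.774, 3.15 and 8.57 CPM and red cell markers at 58.5, 28.6 and 38.0 CPM, levels no lower than those of Hspb1, and their part in the Hspb1 values was not tested. Astrocytes had 0, 3 and 1 Hspb1 UMIs and oligodendrocytes had 1, 2 and 3, too few to order. Vascular nuclei (endothelial and mural, wider gate) held 54.4% (44.8 to 63.7) of all Hspb1 UMIs in saline, 66.3% (59.3 to 72.9) after LPS and 49.5% (42.5 to 56.5) after poly(I:C). They held 0.9795%, 0.673% and 0.747% of all UMIs. With the vascular barcodes left out, the ratio of the remaining Hspb1 to saline was 1.51 (1.03 to 2.22) after LPS and 3.35 (2.38 to 4.77) after poly(I:C). The remaining barcodes include those in no class under the wider gate, 34.8%, 16.5% and 33.5% of barcodes in saline, LPS and poly(I:C). Whether these hold vessel nuclei was not tested, so the vascular shares and this ratio are not a clean split of cells.

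**Figure D2:**
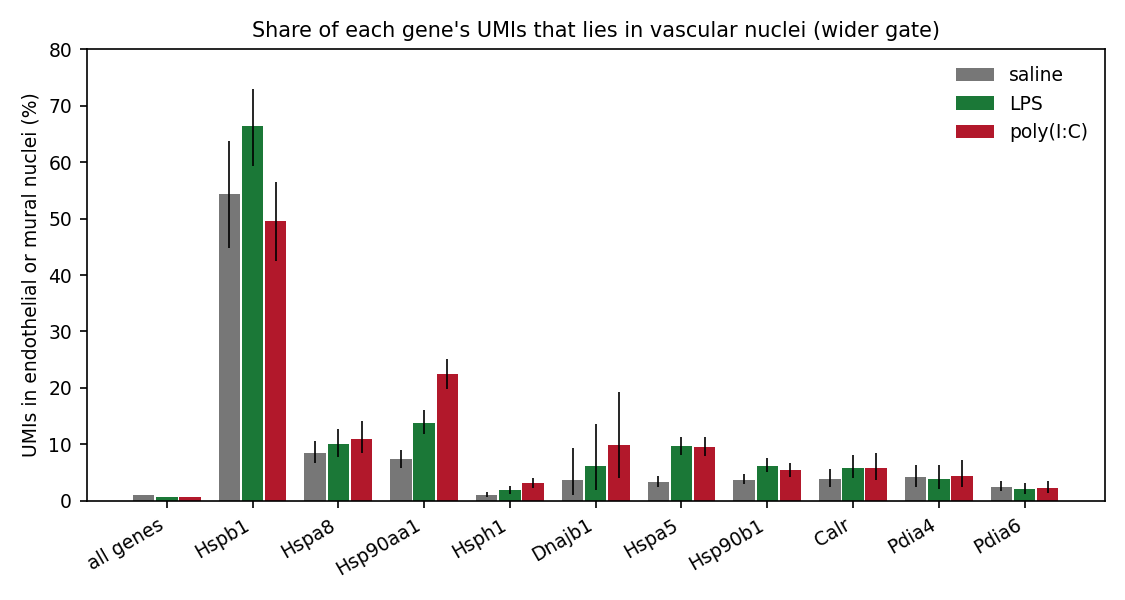
Percent of each gene's UMIs that lay in endothelial and mural nuclei (wider gate) in each library, with exact 95% binomial intervals (counting error only). Vascular nuclei held 54.4%, 66.3% and 49.5% of the Hspb1 UMIs in saline, LPS and poly(I:C), and 7.33%, 13.8% and 22.4% of the Hsp90aa1 UMIs.

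Among the cytosolic members in endothelial nuclei, Hsp90aa1 stood further from saline in both treated libraries than it did over all barcodes, under either gate. Hsp90aa1 had 9 UMIs in saline, 20 after LPS and 58 after poly(I:C) under the stricter gate, or 171, 912 and 1594 CPM. Both treated libraries were higher, by 5.33-fold (2.32 to 13.3) and 9.32-fold (4.59 to 21.4). Under the wider gate its levels were 216, 774 and 1364 CPM, ratios of 3.58 (2.62 to 4.94) and 6.31 (4.66 to 8.62). Poly(I:C) was the higher of the treated libraries, with LPS at 0.567 (0.446 to 0.721) of its level. The ratio to saline ran from 3.11 to 4.66 for LPS and from 5.30 to 7.89 for poly(I:C) over the alternatives tried on the wider gate.

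Hspb1 in endothelial nuclei was above saline by 2.40-fold (1.02 to 5.61) after LPS and 2.56-fold (1.24 to 5.50) after poly(I:C) under the stricter gate. The wider gate gave 3.77-fold (2.70 to 5.34) and 3.25-fold (2.24 to 4.75), and the poly(I:C) value was 2.17 without nuclei holding a UMI of the neuron panel. The treated libraries did not differ from each other beyond counting error, with LPS at 1.16 (0.853 to 1.59) of poly(I:C). Hsph1 had 2, 4 and 14 UMIs under the stricter gate, and 67.4, 157 and 322 CPM under the wider gate. It was 2.33-fold (1.24 to 4.46) above saline after LPS and 4.77-fold (2.67 to 8.78) after poly(I:C), and LPS was at 0.489 (0.284 to 0.830) of poly(I:C). Without nuclei holding a neuron panel UMI, which left 107, 62 and 78 nuclei, the poly(I:C) value was 2.17-fold, below its interval above. LPS was then at 0.888 of poly(I:C). Whether the nuclei left out or the smaller counts made this change was not tested.

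Hspa8, which had 4, 11 and 16 UMIs in the stricter endothelial sums, depended on the gate. Its ratio to saline was 6.59 (1.95 to 28.4) after LPS and 5.78 (1.87 to 23.8) after poly(I:C) there. Under the wider gate it was at 209, 284 and 391 CPM, and the ratios were 1.36 (0.906 to 2.03) and 1.87 (1.24 to 2.80). They were 0.9802 and 1.11 with nuclei thinned to 1000 UMIs, which left 71, 61 and 27 endothelial nuclei. The LPS ratio was 2.23 without nuclei holding a neuron panel UMI. The Dnajb1 counts were 2, 0 and 2 UMIs under the stricter gate and 10.6, 30.2 and 52.1 CPM under the wider one, where the poly(I:C) interval was 1.05 to 30.3.

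**Figure D3:**
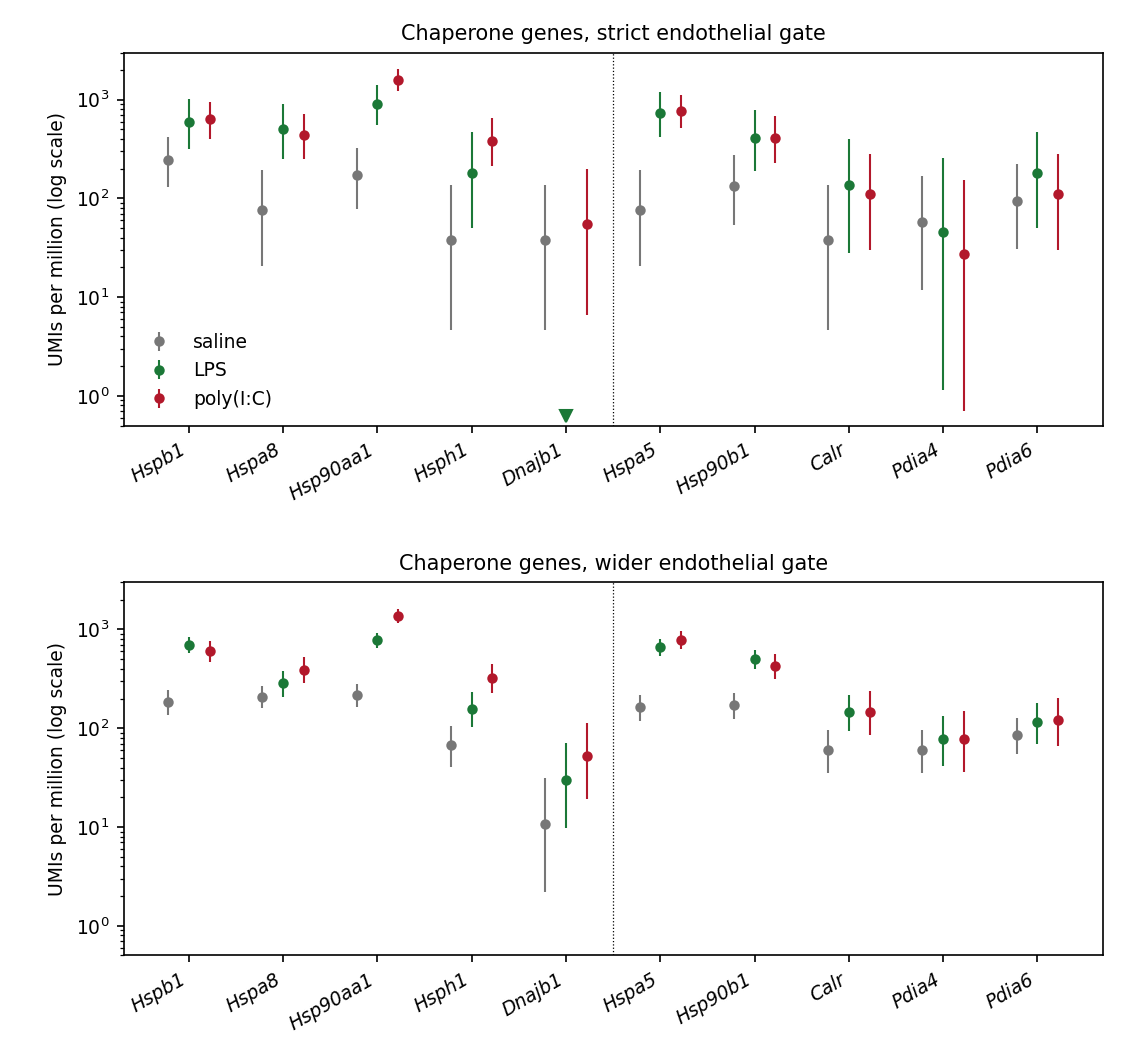
Levels of the 10 genes in endothelial nuclei by library, in CPM on a log axis with exact 95% Poisson intervals (counting error only), for the stricter and the wider gate. A triangle at the bottom marks 0 UMIs. Hsp90aa1 stands at 216, 774 and 1364 CPM and Hspa5 at 163, 659 and 791 CPM in saline, LPS and poly(I:C) under the wider gate.

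Among the ER members in endothelial nuclei, Hspa5 had 4 UMIs in saline, 16 after LPS and 28 after poly(I:C) under the stricter gate, or 76.1, 729 and 770 CPM. It was 9.59-fold (3.09 to 39.4) and 10.1-fold (3.54 to 39.7) above saline. The wider gate gave 163, 659 and 791 CPM, with ratios of 4.04 (2.84 to 5.83) and 4.85 (3.36 to 7.07). LPS and poly(I:C) did not differ beyond counting error, with LPS at 0.834 (0.625 to 1.11) of poly(I:C).

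Hsp90b1 was at 170, 502 and 426 CPM under the wider gate, 2.95-fold (2.04 to 4.30) and 2.50-fold (1.65 to 3.80) above saline. The stricter gate gave 3.08-fold (1.02 to 9.74) and 3.10-fold (1.19 to 8.98). Calr stood at 60.3, 145 and 148 CPM in the wider sums, ratios of 2.41 (1.24 to 4.77) and 2.45 (1.18 to 5.11), which became 4.07 and 6.57 with nuclei thinned to 1000 UMIs. The 2 disulfide isomerases were nearer to saline. Pdia4 was at 60.3, 78.6 and 78.2 CPM and Pdia6 was at 85.1, 115 and 122 CPM, and the intervals of their ratios included 1 in both comparisons. The Pdia4 interval for LPS, from 0.582 to 2.85, leaves room for ratios on either side of 1, and the LPS ratio after thinning was 2.33 for Pdia4 and 0.529 for Pdia6.

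In the wider endothelial sums, 5 members for LPS and 6 for poly(I:C) had at least 50 UMIs over both libraries. Of these, 4 of 5 and 6 of 6 were at least 1.5-fold above saline, where 18.2% and 19.4% of all genes past the same minimum were higher and 23.5% and 29.0% were lower. A member that is high in a treated library passes that minimum more easily, so the counts describe those members and not all 10. Between the treatments, 2 of 6 members, Hsp90aa1 and Hsph1, were at least 1.5-fold lower in LPS than in poly(I:C), against 19.3% of genes lower and 17.3% higher. Over all 5 genes of a group the cytosolic median log2 ratio was 1.51 after LPS (-0.85 to 4.19) and 2.25 after poly(I:C) (1.42 to 3.13). The LPS median is the value of Dnajb1, from 5 and 3 UMIs. The cytosolic poly(I:C) median is the value of Hsph1. The ER median was 1.27 (0.31 to 2.26) and 1.29 (0.23 to 2.35), both the values of Calr. The interval beside each median is that of its middle gene alone and does not cover the spread between genes. The cytosolic poly(I:C) value was 1.12 when nuclei with any UMI of the neuron panel were left out. The medians over all genes past the minimum were -0.06 and -0.17. Under the stricter gate the group medians were 2.34 and 2.53 for the cytosolic genes and 1.62 and 1.53 for the ER genes, where the cytosolic LPS value rests on 4 genes because Dnajb1 had 0 UMIs, beside -0.39 and -0.29 over all genes.

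The UMIs behind these sums were spread over many nuclei, although 1 LPS nucleus held 13 of the 115 Hspb1 UMIs. Under the wider gate, Hsp90aa1 had a UMI in 51 of 315 saline nuclei, 79 of 152 LPS nuclei and 95 of 164 poly(I:C) nuclei, at median depths of 737, 909.5 and 600.5 UMIs. With every nucleus thinned to 500 UMIs, the share was 12.9%, 29.6% and 46.1% (280, 152 and 115 nuclei kept). The thinned shares of Hspb1 were 8.21%, 19.7% and 29.6%, and those of Hspa5 were 8.57%, 20.4% and 34.8%. Both treated libraries had larger shares than saline for all 3 genes. In excitatory neurons, where Hspb1 is close to absent, its thinned share was 0.0545%, 0.0906% and 0.155%, and the Hsp90aa1 share there was 1.33%, 1.63% and 1.09%.

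The endothelial label was checked against its markers, of which 11 of 11 that could be matched had UMIs in the wider sums. These markers also define the gate, so their presence is not an independent check. Their summed level was 8425 CPM in saline, 10150 after LPS and 8514 after poly(I:C). Single markers moved in both directions under that sum. Cdh5 was at 177, 617 and 1103 CPM, while Tie1 was at 298, 115 and 43.4 CPM and Emcn at 482, 187 and 174 CPM. Mural markers summed to 5596, 5605 and 4240 CPM, and under the stricter gate, which leaves out nuclei with 2 mural markers, to 2472, 2188 and 2309 CPM. Haemoglobin genes, markers of red cells, were at 9748, 5798 and 4483 CPM and so were highest in saline. Neutrophil markers moved with treatment, at 3.55 CPM in saline (1 UMI), 1149 after LPS (190 UMIs) and 895 after poly(I:C) (103 UMIs), and the part of these cells in the results was not tested beyond leaving them out. Most were S100a9 (0, 130 and 56 UMIs) and S100a8 (1, 44 and 29 UMIs), and Ltf was at 0 in all 3 libraries. They lay in 1, 6 and 8 nuclei, and without those nuclei the median log2 ratios in the wider sums were 1.58 and 2.09 for the cytosolic genes and 1.35 and 1.27 for the ER genes. T and NK cell markers were at 21.3, 0 and 0 CPM, and the neuron panel was at 1401, 901 and 1242 CPM.

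Mural nuclei under the wider gate also held Hspb1 and Hspa5 above saline in both treated libraries, on fewer UMIs. Hspb1 was 2.84-fold (1.19 to 7.06) above saline after LPS and 5.06-fold (2.44 to 11.5) after poly(I:C). Hspa5 stood at 121 CPM in saline, 573 after LPS and 676 after poly(I:C), ratios of 4.73 (1.996 to 12.4) and 5.58 (2.50 to 14.1). Hsp90aa1 stood at 242, 458 and 1216 CPM. Its ratio after LPS, 1.89 (0.886 to 4.04), included 1, and that after poly(I:C) was 5.02 (2.83 to 9.40). Hsp90b1 was at 227, 258 and 586 CPM, with an interval that excluded 1 for poly(I:C) alone, at 2.58 (1.32 to 5.24). In the LPS sums 5 of the 20 Hspa5 UMIs lay in 1 nucleus. In the same sums neutrophil markers stood at 0, 630 and 473 CPM and red cell markers at 6193, 1432 and 2095 CPM. Endothelial markers were at 3361, 4411 and 3266 CPM. Leaving out nuclei with a neutrophil marker UMI kept 94, 41 and 61 mural nuclei. Over all alternatives, this one included, the Hspa5 ratios to saline ran from 3.89 to 5.26 for LPS and from 2.0 to 6.37 for poly(I:C). The part of red cell and endothelial RNA in the mural values was not tested. The mural ratios moved with the processing, on few nuclei, and counting error was not set apart from it. Thinning to 1000 UMIs left only 18, 8 and 6 mural nuclei, so the ratios under it rest on few UMIs. There the Hspb1 ratios were 9.0 and 21.0 and those of Hsp90b1 were both 4.5. The poly(I:C) ratios were 2.0 for Hspa5 and 3.0 for Hsp90aa1. Without nuclei holding a neuron panel UMI the Hsp90aa1 ratios were 4.37 and 7.96, and with every nucleus weighted equally the Hsp90b1 ratio for LPS turned to 0.635.

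The 8 members with at least 50 UMIs lay near saline in neurons. In excitatory neurons (4767, 2582 and 3441 nuclei), 0 of 8 were 1.5-fold apart in any of the 3 comparisons. The share of all genes that far apart in either direction was 4.73% for LPS against saline, 7.22% for poly(I:C) against saline and 5.1% for LPS against poly(I:C). GABA neurons (4.63%, 6.65% and 5.14% of all genes) and striatal projection neurons (4.93%, 6.97% and 4.63%) likewise had 0 of 8 members that far apart. The other members, Hspb1 and Dnajb1, had fewer than 50 UMIs in each of these classes, and the higher Hspb1 value after poly(I:C) in excitatory neurons is given above.

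**Figure D4:**
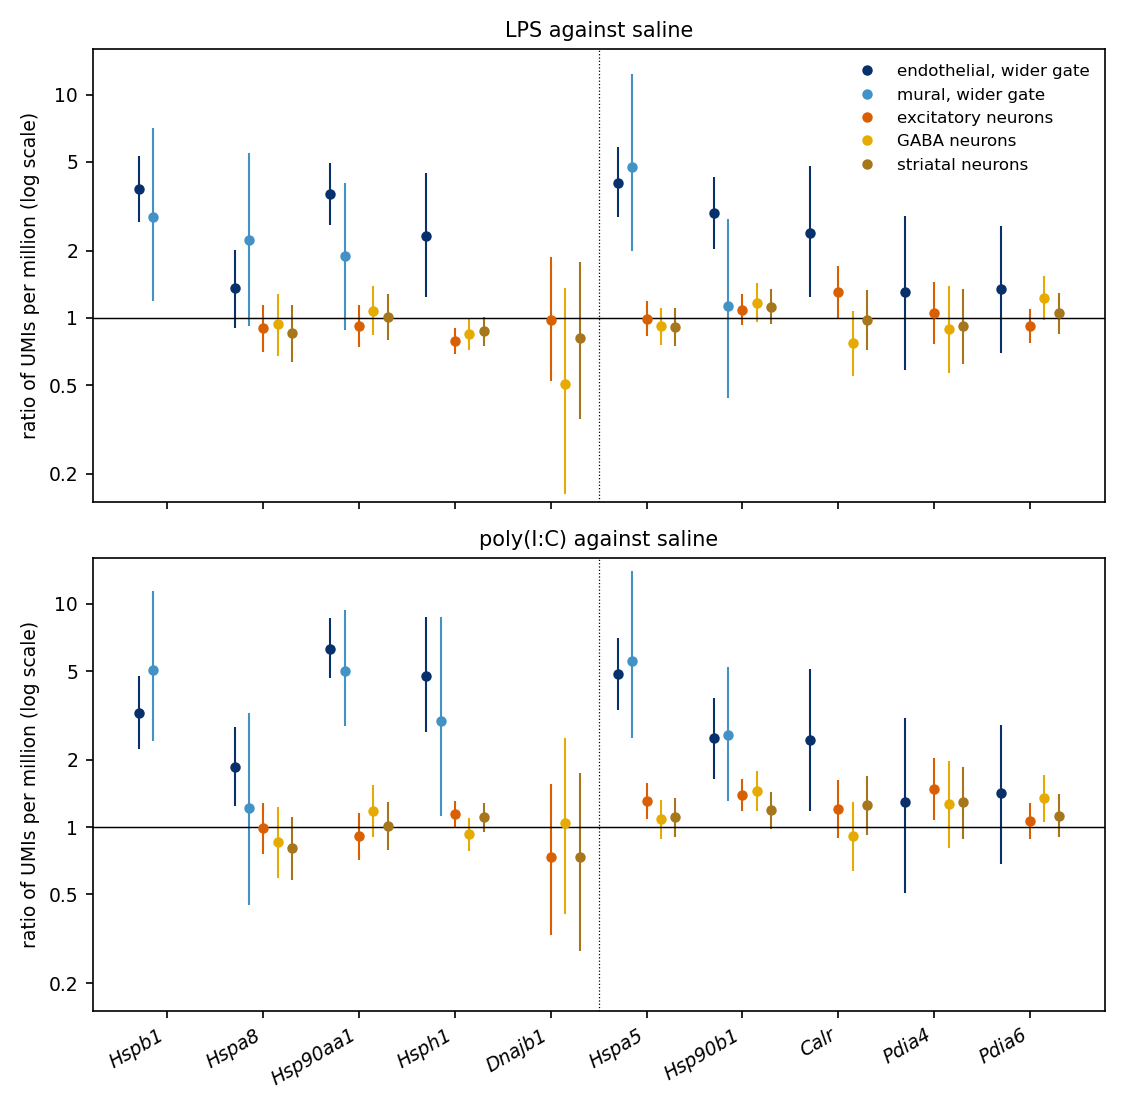
Ratios to saline in endothelial and mural nuclei (wider gate) and 3 neuron classes (stricter gate), on a log axis, for genes with at least 20 UMIs over both libraries, with exact 95% intervals (counting error only). Members with at least 50 UMIs lie within 1.5-fold of saline in neurons, whereas endothelial Hsp90aa1 stands 3.58-fold above it after LPS and 6.31-fold after poly(I:C).

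Small differences in neurons were seen for single members. Hsph1 in excitatory neurons was at 62.5 CPM in saline, 49.3 after LPS and 71.6 after poly(I:C). LPS was the low library, at a ratio of 0.790 (0.688 to 0.905) to saline, and in GABA neurons that ratio was 0.845 (0.718 to 0.992). In striatal neurons 2 cytosolic intervals lay below 1 for LPS under the wider gate and 0 under the stricter one. Calr in excitatory neurons had 97 of 7248682 UMIs in saline and 141 of 8065809 after LPS, the 1 ER interval above 1 for LPS there. Hsp90b1 in excitatory neurons was at 39.3, 42.8 and 54.9 CPM, and its poly(I:C) ratio was 1.40 (1.19 to 1.65). In GABA neurons the poly(I:C) ratio of Hsp90b1 was 1.46 (1.18 to 1.79), and in striatal neurons it was 1.19 (0.985 to 1.44). Hspa5 in excitatory neurons stood at 31.9, 31.6 and 41.6 CPM, with poly(I:C) at 1.31 (1.08 to 1.57) of saline. Pdia4 there was at 10.4, 10.9 and 15.3 CPM, with poly(I:C) at 1.48 (1.07 to 2.04). Hsp90aa1, far from saline in vessel nuclei, was level in excitatory neurons at 23.9, 21.9 and 21.7 CPM. For Pdia6 in GABA neurons the poly(I:C) ratio of 1.35 (1.05 to 1.72) turned to a log2 ratio of -0.35 when 3 markers were asked for.

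Between classes, under the wider gate, Hsp90aa1, Hspa5 and Hsp90b1 were higher in endothelial nuclei than in excitatory neurons in every library. The endothelial level of Hsp90aa1 was 9.14-fold that of excitatory neurons in saline, 31.2-fold after LPS and 54.3-fold after poly(I:C). For Hspa5 it was 4.82-fold, 20.8-fold and 18.3-fold, and for Hsp90b1 4.18-fold, 12.0-fold and 7.61-fold. Hsph1 was nearly equal in the 2 classes in saline, at 1.09-fold, and stood at 3.05-fold and 4.52-fold in the treated libraries. Under the stricter gate the saline ratios were 2.39 (0.645 to 6.19) for Hspa5, which includes 1, and 0.609 (0.0735 to 2.21) for Hsph1. Vascular nuclei held 7.33%, 13.8% and 22.4% of all Hsp90aa1 UMIs in saline, LPS and poly(I:C). Barcodes in no class were kept when the vascular ones were left out. The ratios of Hsp90aa1 to saline over the remaining barcodes were then 1.10 and 1.247, in place of 1.19 and 1.49. For Hspa5 these ratios were 0.922 and 1.21.

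Oligodendrocytes (330, 746 and 181 nuclei under the stricter gate) held few member UMIs. Hspa5 was at 53.6 CPM in saline, 45.5 after LPS and 116 after poly(I:C), and the poly(I:C) ratio of 2.16 (0.874 to 5.41) rested on 12 and 11 UMIs. Hsp90b1 was at 48.7, 78.2 and 135 CPM, with a poly(I:C) ratio of 2.78 (1.15 to 6.98). Poly(I:C) was the high library for both. In the other non-neuronal classes outside the vessels 4 intervals excluded 1, each on fewer than 20 UMIs. Under the wider gate Hspa8 in oligodendrocyte precursors had 7 UMIs after poly(I:C) and 1 in saline, at 8.25-fold (1.06 to 371.8). Hsp90aa1 in ependymal nuclei, the ciliated lining of the ventricles, had 6 and 3 UMIs, at 5.87-fold (1.254 to 36.3). Between the treatments, Hsp90b1 in LPS was at 0.315 (0.106 to 0.921) of poly(I:C) in precursors under the stricter gate and at 0.261 (0.0864 to 0.823) in ependymal nuclei under the wider one.

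Other genes of the same systems were read from 6 lists of chaperones and stress response genes, over all barcodes. Of 28 further cytosolic chaperones with at least 50 UMIs, 1 was at least 1.5-fold above saline in each treated library. It was Cryab, the alpha-crystallin B chain and a relative of Hspb1, at 3.05-fold (2.22 to 4.23) after LPS and 1.78-fold (1.22 to 2.62) after poly(I:C). None of 6 mitochondrial chaperones, 4 heat shock factors or 18 genes of ER-associated degradation or ER protein import was 1.5-fold apart in either comparison. Of 23 further ER chaperones, 0 were higher after LPS and 1, Sdf2l1, was higher after poly(I:C), at 1.83-fold. Among 17 genes of unfolded protein response signalling, 1 was lower after LPS and 2 were higher and 2 lower after poly(I:C). Atf3, a stress-induced transcription factor, was 6.85-fold (4.46 to 10.9) above saline after poly(I:C), and Ddit3 (Chop), a factor linked to prolonged ER stress, was at 1.62-fold. Creb3l1, a membrane-bound transcription factor, was lower in both, at ratios of 0.555 and 0.594, and its relative Creb3l2 was lower after poly(I:C), at 0.643. The shares of all genes past that fold are those given for all barcodes above.

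In the wider endothelial sums more genes of the same lists were above saline, and so were more of all genes. The share of all genes 1.5-fold higher was 18.2% after LPS and 19.4% after poly(I:C), against 3.96% and 2.76% over all barcodes. A count of 1 in lists this short is not set apart from that share. Counts are of genes with at least 50 UMIs. After LPS 5 of 10 further cytosolic chaperones, 1 of 7 ER chaperones, 1 of 4 degradation or import genes and 3 of 4 signalling genes were 1.5-fold higher. Xbp1, the transcription factor that Ire1 splices, was 6.20-fold (3.12 to 13.4) above saline after LPS, on 40 and 11 UMIs. Atf6 and Atf4 were at 2.70-fold and 2.27-fold. After poly(I:C) the counts were 4 of 8 cytosolic chaperones, 4 of 6 ER chaperones, 1 of 3 degradation or import genes and 1 of 3 signalling genes. In addition 1 degradation or import gene was lower. Atf3 was 8.91-fold (4.49 to 19.3) above saline after poly(I:C), also on 40 and 11 UMIs. Hsp90ab1, the constitutive Hsp90, was at 1.91-fold after LPS and 2.61-fold after poly(I:C), and Dnaja1, another Hsp40 co-chaperone, was at 1.90-fold and 3.00-fold. A list gene that is high in a treated library passes the minimum of 50 UMIs more easily. The counts therefore describe the genes that passed and not the whole lists. The lists were chosen with earlier results of these data known.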

How the data were processed

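The deposited values are counts of UMIs, whole numbers with no normalization, for every gene in each barcode of 3 libraries of brain nuclei. Per the submitters' processing notes the authors used Cell Ranger 7.0.0 and the rat build mRatBN7.2, and the annotation and read filters are not given in the sources used here. All deposited barcodes were kept in the main sums. UMIs of each gene were summed per library, or per library and cell class, and divided by all UMIs of that sum to give CPM. Ratios carry exact conditional (Clopper-Pearson) 95% intervals, and levels carry exact Poisson intervals, and neither covers the spread between animals. A group median carries the interval of its middle gene, or the mean of those of the middle genes where their number is even. A floor of 3 counts stood in for 0. A gene counted as past the fold at 1.5-fold with at least 50 UMIs over both libraries.

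Under the stricter gate a non-neuronal barcode had at least 2 different markers of a single class and more marker UMIs than neuron panel UMIs, and a neuron had at least 2 neuron panel UMIs and a leading subclass. The wider gate and the setting without neutrophil-marker or vascular barcodes were chosen after seeing the data. The members and lists were chosen with earlier results of these data known. Named genes are all 10 members and, per list and comparison, up to 4 genes with the largest fold past 1.5-fold, an interval that excludes 1 and at least 50 UMIs. Symbols of some list genes and markers were not matched and are not used here. Doublets were kept in the main sums. Scrublet (scanpy 1.11.5) called 0, 0 and 703 doublets in saline, LPS and poly(I:C) at its default rate, so for the setting that leaves doublets out its expected rate was set, after seeing this, to rise with the number of nuclei, which gave 915, 1272 and 703. Alternatives were filtered barcodes, other denominators, equal weight per nucleus, thinning, shared barcodes left out, 3 markers, no neuron panel UMI, a 2-fold call and other UMI minimums. The ratio and its interval were tried on simulated independent Poisson counts with known folds at whole-library depth. That trial did not cover the small class sums or UMIs that cluster in single nuclei. Computing used Python 3.11.15, numpy 2.4.6, scipy 1.17.1 and pandas 2.3.3.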

Additional observations from a re-analysis of the deposited data

Results flagged for a closer look

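Hsph1, the Hsp110 nucleotide exchange factor, lay on opposite sides of saline in neurons and in vessel nuclei of the same LPS library. Its LPS to saline ratio was 0.790 (0.688 to 0.905) in excitatory neurons and 0.845 (0.718 to 0.992) in GABA neurons, both below 1. In endothelial nuclei under the wider gate it was 2.33 (1.24 to 4.46). With 1 library per group the difference between the classes was not tested.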

How the results depend on the processing

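Each group was 1 library, so no replicate could be left out, and no paired analysis was possible because no group had 2 samples. The 10 genes were called on counts whose depth limits the smaller classes most, where a member often had under 20 UMIs. With nuclei thinned to 1000 UMIs, the cytosolic median log2 ratio over all barcodes was 0.44 for LPS against saline, 0.38 for poly(I:C) against saline and 0.0865 for LPS against poly(I:C), and the ER median for LPS against saline was 0.24. For LPS against poly(I:C) thinning also turned Hspb1 to 0.14, Hspa8 to 0.11 and Hsp90aa1 to 0.0865, and for LPS against saline Hspa8 turned to 0.0538. With every nucleus weighted equally, the cytosolic median for poly(I:C) against saline was 0.30, Hspa8 for LPS against saline was 0.10, and 2 members in place of 1 were 1.5-fold from saline after poly(I:C). The median ratio over genes as the scale also gave 2 members there, and 1 in place of 0 for LPS against poly(I:C). Filtered barcodes gave a cytosolic median of -0.19 for LPS against poly(I:C). The cytosolic median in the wider endothelial gate was 1.12 for poly(I:C) against saline without nuclei holding a neuron panel UMI, and Pdia6 in GABA neurons was -0.35 with 3 markers. The causes were not tested. No other median or member count moved beyond its counting interval, or by over 1.5 times for a count, under any alternative that gave a value. The share of all genes past the fold over all barcodes did move by over 1.5 times. It did so in 3 of 3 comparisons under the 2-fold call, and likewise with a minimum of 10 or of 200 UMIs. Ratios of single genes, over all barcodes or in a class, moved more often, 37 of 126 under thinning, 28 of 104 with 3 markers, 6 of 138 with equal weight and 4 of 138 with filtered barcodes, not counting the sign changes above.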

Other observations

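The genes whose levels followed the chaperone groups most closely were ranked over 15 sums of a class in a library, by Pearson's r of log2(CPM + 10) with the mean of the 5 members. For the cytosolic group they were Nprl3 (r = 0.931), Rufy3 (0.923), Arl8a (0.92), Gtf2h2 (0.916) and Peds1 (0.914). For the ER group they were Brd7 (r = 0.939), Bicral (0.928), Zmym6 (0.915), Wdr44 (0.909) and Rbm41 (0.908). These are the highest values of all genes ranked. The members' own r with their group mean, which includes them, was lower. It ran from 0.505 (Hsph1) to 0.901 (Hsp90aa1) for the cytosolic group and from 0.562 (Calr) to 0.894 (Hspa5) for the ER group. The points share 3 libraries and their depths, and the endothelial sums of the stricter gate were too small to be among them, so these values describe neurons and the more common glia.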
